A study of Arabidopsis thaliana with 12 samples.

Results

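The genes described here are nuclear genes whose proteins carry out the light reactions of photosynthesis in *Arabidopsis thaliana*. The list held 53 loci and was drawn up by gene function, with earlier results of these data known. No measured value served as a criterion. A gene was represented by each probe set of the array that the deposited annotation assigned to its locus. This gave 49 probe sets for 49 genes, out of 22746 probe sets without controls. The 4 genes with no probe set under their own locus (LHCB1.1, LHCB1.3, LHCB1.5 and LHCB2.1) encode antenna proteins that are near-identical to other members. The probe sets named here for LHCB1.2, LHCB1.4, LHCB2.2 and LHCA2 are of a type that may hybridize to more than 1 transcript, so their values may sum several antenna genes.

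The plants were seedlings of ecotype Columbia, either wild-type (WT) or mutant for eIF3k, a subunit of the translation initiation factor eIF3. In the eif3k mutant a T-DNA interrupts an intron of the gene. Aerial parts of both genotypes were harvested at 11 days from medium with 1% sucrose, and no other treatment separated the groups. The eif3k mutant was represented by 1 insertion line. Each lysate was separated on a sucrose gradient, from which 6 upper fractions made up the non-polysomal pool (NP) and 6 lower fractions the polysomal pool (PL). Each of the 4 groups (PL and NP in each genotype) had 3 replicates, each on an Affymetrix ATH1 array, which gave 12 arrays. The labels give a long day as the growth light and the methods of the study give continuous light, and the difference was not resolved here.

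In the thylakoid membrane, antenna proteins of the LHC family bind chlorophyll and pass light energy to photosystems I and II. Photosystem II takes electrons from water, and these move through the cytochrome b6f complex and plastocyanin to photosystem I, ferredoxin and ferredoxin-NADP reductase (FNR), while the proton gradient drives the plastid ATP synthase. The reaction centre cores are encoded in the plastid genome. The antenna proteins and most peripheral subunits are encoded in the nucleus, translated on cytosolic ribosomes and imported into the chloroplast. These mRNAs are among the most abundant of a green leaf.

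The translation state (TL) of an mRNA was computed as log2 PL minus log2 NP of the same replicate, so a higher TL stands for a larger share of signal in the polysomal fraction. The arrays of both fractions were normalized to each other, and a TL of 0 therefore does not mark an equal split of an mRNA between fractions. The signal level of a replicate is the average of its log2 signals in PL and NP. All 49 members had log2 signals above 5 on every array, from 5.28 to 15.26, where the lowest deposited value of any probe set was 2.33. The highest signal of any non-control probe set on any array (15.26) was that of LHCB1.2 in the NP fraction of eif3k replicate 2. TL is compared between genes below, and signal is compared only within a gene.

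WT replicate 3 stood apart from the other 5 samples. Across all probe sets its TL correlated with theirs at r between 0.30 and 0.36, while the other 5 correlated among themselves at r between 0.74 and 0.90. On its PL array the 3′ probe set of the GAPDH control exceeded the 5′ probe set by 8.98 on the log2 scale, against 5.56 to 7.97 on the other 11 arrays, and for ubiquitin the difference was 3.54 against 1.70 to 2.92. The actin control, at 6.78, was inside the range of the others (6.34 to 7.44). By the labels, the array data of replicates 1 and 2 came from a common day (array batch 1) and those of replicate 3 from a later day (array batch 2), in both genotypes. Counts of members called or with an unadjusted p under 0.05 are therefore given with and without WT replicate 3. Counts at the adjusted p alone, of groups that did not overlap and of other gene lists cover all 6 samples only. The probe set for eIF3k itself gave log2 NP signals of 9.26, 9.45 and 9.01 in WT and 7.30, 7.93 and 8.05 in eif3k. In PL it gave 8.61, 8.89 and 7.28 in WT and 7.17, 7.06 and 7.63 in eif3k. The genotypes were separate in NP and overlapped in PL through WT replicate 3.

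The tissue label was checked against marker genes. None of the 8 root markers had a mean log2 signal above 5, and their highest signal on any array was 3.49. RBCS1A, the small subunit of Rubisco and a marker of mesophyll, ranged from 14.43 to 14.90. All 4 epidermal markers and 1 of 2 vascular markers were above a mean of 5, and neither of the 2 guard cell markers was.

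The light-reaction mRNAs had a higher median TL than the brighter probe sets of the array, those with a mean log2 signal above 5, in all 6 samples. TL was above 0 in 6 of 6 samples for 26 members (53.1%), where 9.18% of all probe sets and 19.3% of the 7178 probe sets with a mean log2 signal above 5 did the same. TL was below 0 in 6 of 6 samples for 6 members (12.2%), against 12.7% of all probe sets and 25.5% of the brighter ones. The remaining 17 members changed sign among samples. Without WT replicate 3, 35 members were above 0 in the other 5 samples, and 9 of these were below 0 in WT replicate 3. The share of all probe sets above 0 in those 5 samples was not counted. The median TL of the members was 0.98, 0.89 and 0.19 in WT and 0.90, 0.94 and 0.59 in eif3k. In the same samples the median over the brighter probe sets was 0.06, 0.12 and -0.44 in WT and 0.11, 0.11 and 0.03 in eif3k.

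**Figure D1:**
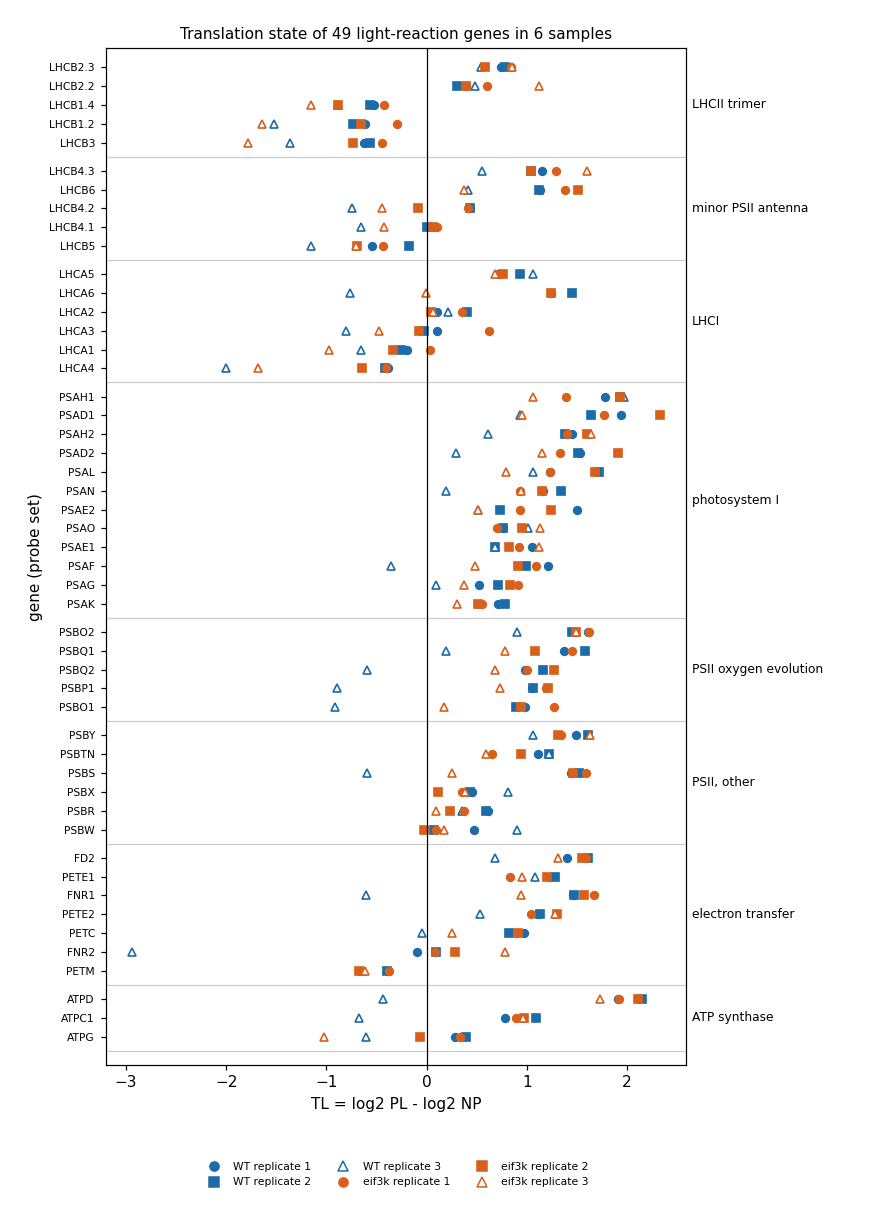
Translation state (TL, log2 PL minus log2 NP, horizontal axis) of the 49 genes, ordered within each functional group by mean TL. Blue marks WT and orange marks eif3k, and circles, squares and open triangles mark replicates 1, 2 and 3. PSAH1, with the highest mean TL, lies between 1.06 and 1.97, LHCA4, with the lowest, lies between -2.0 and -0.38, and WT replicate 3 falls far to the left for FNR2 at -2.94.

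In a moderated test of TL against 0 (limma, p-values adjusted by Benjamini-Hochberg across the 22746 probe sets, with a call requiring an adjusted p below 0.05 together with a log2 change of 1 or more), 8 members were called on the polysomal side (TL above 0) in WT and none on the non-polysomal side (TL below 0). Over all probe sets, 2.01% were called on the polysomal side and 2.82% on the other. The members were PSAH1, PSAH2, PSAL, PSBO2, PSBTN, PSBY, PETE1 and FD2. In eif3k 8 members were called, all again on the polysomal side, against 2.18% of all probe sets on that side and 2.55% on the other. These were LHCB4.3, PSAH1, PSAH2, PSAL, PSBO2, PSBY, PETE2 and FD2, so 6 were called in both genotypes. At the adjusted p alone, 17 members passed in WT (6.62% of all probe sets) and 16 in eif3k (6.86%).

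These counts depended on the samples and on the background they were read against. When only the brighter probe sets were tested, which include all 49 members, 11 members (22.4%) were called in WT, against 10.1% of the probe sets on the polysomal side, and 15 members (30.6%) in eif3k, against 13.7%. Without WT replicate 3 the counts over all probe sets were 15 in WT and 13 in eif3k, against 3.76% and 4.59%. Leaving out WT replicate 1 or 2 left 0 members called in WT, and leaving out any eif3k replicate left 0 in eif3k. The share of all probe sets called in those settings was not counted. These counts of 0 may therefore not be particular to the members.

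The antenna genes were lower in TL than the other members in every sample. The 16 LHC probe sets had a median TL of 0.10, 0.15 and -0.70 in WT and 0.38, -0.02 and -0.43 in eif3k. For the other 33 members the medians were 1.11, 1.13 and 0.35 in WT and 1.00, 1.15 and 0.78 in eif3k. The difference of the medians lay between -1.21 and -0.62 over the 6 samples. Of the 6 members below 0 in every sample, 5 were LHC genes, and 20 of the 26 members above 0 in every sample were not.

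The major light-harvesting complex of photosystem II is a trimer of LHCB1, LHCB2 and LHCB3 proteins, and its genes fell into separate ranges of TL. LHCB3 (AT5G54270), the least abundant subunit of the trimers, had a TL of -0.62, -0.56 and -1.36 in WT and -0.44, -0.73 and -1.78 in eif3k. LHCB2.3 (AT3G27690) had a TL of 0.74, 0.78 and 0.54 in WT and 0.84, 0.58 and 0.85 in eif3k. Every sample of LHCB3 was below every sample of LHCB2.3. The test against 0 gave LHCB2.3 a mean of 0.69 ± 0.08 (SE) in WT (limma, adjusted p = 0.0203) and 0.76 ± 0.08 in eif3k (adjusted p = 0.0174), under the change required for a call. LHCB3 was at -0.85 ± 0.32 in WT and -0.98 ± 0.32 in eif3k (limma, adjusted p = 0.239 and 0.169). LHCB2.2 was on the side of LHCB2.3 in all 6 samples (0.30 to 1.12). LHCB1.2 and LHCB1.4 were on the side of LHCB3 in all 6 (-1.64 to -0.30 and -1.15 to -0.42). Their NP signals reached 15.26 and 15.02, at or near the highest signal of any non-control probe set, and that of LHCB3 reached 14.42. Whether saturation at such signals narrowed their TL was not tested.

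The minor antenna proteins LHCB4, LHCB5 and LHCB6 sit between the trimers and the photosystem II core. LHCB5 (AT4G10340) had the lowest TL of them, with -0.54, -0.18 and -1.15 in WT and -0.43, -0.69 and -0.70 in eif3k. The highest mean belonged to LHCB4.3 (AT2G40100), an isoform of LHCB4 known to accumulate in strong light, with 1.15, 1.04 and 0.55 in WT and 1.29, 1.04 and 1.60 in eif3k. Its paralogs lay lower in every sample. LHCB4.1 (AT5G01530) had a TL of 0.07, 0.00 and -0.65 in WT and 0.10, 0.06 and -0.42 in eif3k, which was 0.98 to 2.02 under LHCB4.3 of the same sample. LHCB4.2 (AT3G08940) had 0.43, 0.43 and -0.74 in WT and 0.41, -0.09 and -0.44 in eif3k, which was 0.61 to 2.04 under LHCB4.3. LHCB4.1 and LHCB4.2 could not be ordered, since each was higher in 3 of 6 samples. LHCB4.3 was called on the polysomal side in eif3k (1.31 ± 0.16 SE, limma adjusted p = 0.0248) and was at 0.91 ± 0.16 in WT (adjusted p = 0.0502). LHCB6 (AT1G15820) had 1.13, 1.12 and 0.41 in WT and 1.38, 1.51 and 0.37 in eif3k, so it was above LHCB4.3 in 3 of 6 samples and the pair had no order.

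In the antenna of photosystem I, LHCA1 to LHCA4 form the main belt, and LHCA5 and LHCA6 are low-abundance proteins that link photosystem I to the plastid NDH complex. LHCA4 (AT3G47470) had the lowest TL, with -0.38, -0.41 and -2.0 in WT and -0.40, -0.64 and -1.68 in eif3k. LHCA5 (AT1G45474) had the highest mean, with 0.71, 0.93 and 1.06 in WT and 0.73, 0.76 and 0.68 in eif3k. LHCA5 had the smallest SE of the members in the fit, and its mean of 0.90 ± 0.07 (SE) in WT passed the adjusted p alone (limma, 0.0102). LHCA6 was above LHCA5 in replicates 1 and 2 of both genotypes (1.24 to 1.45) and dropped to -0.76 in WT replicate 3 and -0.01 in eif3k replicate 3. LHCA1, LHCA2 and LHCA3 lay between -0.97 and 0.62.

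The nuclear subunits of photosystem I were the group with the most uniform sign of TL. Of 12 genes, 11 were above 0 in all 6 samples, and the exception was PSAF, part of the plastocyanin docking site, which was below 0 (-0.35) in WT replicate 3 only. The median of the group was 1.22, 1.17 and 0.57 in WT and 1.01, 1.20 and 0.95 in eif3k. PSAH1 (AT3G16140), whose protein takes part in docking LHCII to photosystem I, had the highest mean TL of all members, with 1.78, 1.93 and 1.97 in WT and 1.39, 1.93 and 1.06 in eif3k. It was called in WT (1.89 ± 0.17 SE, limma adjusted p = 0.0133) and in eif3k (1.46 ± 0.17, adjusted p = 0.0229). PSAK (AT1G30380), next to the LHCI belt, had 0.71, 0.78 and 0.53 in WT and 0.55, 0.51 and 0.30 in eif3k, the lowest mean of the group by 0.56 against 0.57 for PSAG. PSAG had 0.52, 0.71 and 0.09 in WT and 0.91, 0.83 and 0.37 in eif3k, lower than PSAK in every WT sample and higher in every eif3k sample.

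Photosystem I holds several pairs of paralogs, and none of them separated in all 6 samples. PSAD, on the stromal side, helps to dock ferredoxin. PSAD1 (AT4G02770) had a TL of 1.94, 1.64 and 0.93 in WT and 1.77, 2.33 and 0.95 in eif3k, and was above PSAD2 in 5 of 6 samples. PSAD2 (AT1G03130) had 1.53, 1.51 and 0.29 in WT and 1.33, 1.91 and 1.15 in eif3k. PSAH2 (AT1G52230) had 1.45, 1.38 and 0.61 in WT and 1.40, 1.60 and 1.64 in eif3k, and PSAH1 was higher in 4 of 6 samples. PSAE, a neighbour of PSAD, showed no order either. PSAE1 (AT4G28750) had 1.05, 0.68 and 0.68 in WT and 0.92, 0.82 and 1.12 in eif3k. PSAE2 (AT2G20260) had 1.50, 0.73 and 0.51 in WT and 0.93, 1.24 and 0.51 in eif3k, with PSAE1 above it in 2 of 6 samples. PSAL, another subunit of the LHCII docking site, was called in both genotypes and ranged from 0.79 to 1.72.

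The oxygen-evolving proteins PSBO, PSBP and PSBQ shield the manganese cluster of photosystem II on the lumen side. PSBO2 was above its paralog PSBO1 in 6 of 6 samples, by 0.35 to 1.81. PSBO2 (AT3G50820) had a TL of 1.61, 1.45 and 0.90 in WT and 1.62, 1.49 and 1.49 in eif3k, and was called in WT (1.32 ± 0.15 SE, limma adjusted p = 0.0195) and in eif3k (1.53 ± 0.15, adjusted p = 0.0157). PSBO1 (AT5G66570) had 0.98, 0.89 and -0.91 in WT and 1.27, 0.94 and 0.17 in eif3k. In replicates 1 and 2 of both genotypes the paralogs differed by 0.35 to 0.63, and the largest differences came from the replicates 3. PSBQ1 (AT4G21280) had 1.37, 1.58 and 0.19 in WT and 1.45, 1.08 and 0.78 in eif3k. PSBQ2 (AT4G05180) had 0.98, 1.16 and -0.59 in WT and 1.00, 1.27 and 0.68 in eif3k, and was below PSBQ1 in 5 of 6 samples. PSBP1 ranged from 1.05 to 1.21 in replicates 1 and 2 and was at -0.89 in WT replicate 3.

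The other nuclear subunits of photosystem II were mostly small membrane or lumen proteins with low spread. PSBY (AT1G67740) had a TL of 1.49, 1.61 and 1.06 in WT and 1.34, 1.31 and 1.63 in eif3k and was called in both genotypes (1.39 ± 0.13 SE in WT and 1.43 ± 0.13 in eif3k, limma adjusted p = 0.0142 and 0.0152). PSBW (AT2G30570) had the lowest mean of the group with 0.47, 0.07 and 0.90 in WT and 0.09, -0.03 and 0.17 in eif3k. PSBS, the sensor of lumen acidity that triggers heat dissipation, showed the pattern of the oxygen-evolving proteins, at 1.44 to 1.59 in replicates 1 and 2 of both genotypes, -0.59 in WT replicate 3 and 0.25 in eif3k replicate 3. PSBTN, PSBR and PSBX are described with the genotype comparison.

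Among the electron carriers, FD2 (AT1G60950), the main leaf ferredoxin, had a TL of 1.40, 1.61 and 0.68 in WT and 1.59, 1.55 and 1.31 in eif3k and was called in both genotypes. PETM (AT2G26500), a small subunit of the cytochrome b6f complex, was the only member outside the antenna with a TL below 0 in all samples, at -0.38, -0.39 and -0.64 in WT and -0.37, -0.67 and -0.61 in eif3k. It was also the only member to pass the adjusted p on the non-polysomal side (limma, -0.47 ± 0.08 SE with 0.0498 in WT and -0.55 ± 0.08 with 0.0364 in eif3k), without reaching a change of 1. PETC (AT4G03280), the Rieske iron-sulfur protein of the same complex, had 0.97, 0.82 and -0.05 in WT and 0.90, 0.91 and 0.25 in eif3k.

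The genes for plastocyanin and FNR come in pairs. PETE1 (AT1G76100) had a TL of 1.23, 1.28 and 1.08 in WT and 0.83, 1.20 and 0.95 in eif3k, and PETE2 (AT1G20340) had 1.11, 1.13 and 0.53 in WT and 1.04, 1.30 and 1.28 in eif3k. PETE1 minus PETE2 was 0.12, 0.15 and 0.55 in WT and -0.21, -0.10 and -0.33 in eif3k, a contrast singled out after its values were seen and not tested. The FNR genes differed in every sample. FNR1 (AT5G66190) had 1.46, 1.47 and -0.60 in WT and 1.67, 1.57 and 0.94 in eif3k. FNR2 (AT1G20020) had -0.10, 0.09 and -2.94 in WT and 0.08, 0.28 and 0.78 in eif3k, which was 0.16 to 2.34 under FNR1. Neither FNR gene was called in either genotype with all 6 samples. Without WT replicate 3, FNR1 was called in WT (1.465, limma adjusted p = 0.0456) and in eif3k (1.39, adjusted p = 0.028), and FNR2 in neither.

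The nuclear subunits of the plastid ATP synthase spanned a wide range. ATPD (AT4G09650), the delta subunit, had a TL of 1.91, 2.15 and -0.43 in WT and 1.92, 2.11 and 1.73 in eif3k. It was among the highest of all members in the 5 samples other than WT replicate 3. With all 6 samples it was not called in either genotype (1.21 ± 0.55 SE in WT and 1.92 ± 0.55 in eif3k, limma adjusted p = 0.318 and 0.131). The fit gave both genotypes a common spread, so WT replicate 3 also entered the SE of eif3k. Without that sample ATPD was called in WT (2.03, limma adjusted p = 0.0179) and in eif3k (1.92, adjusted p = 0.0104). ATPG (AT4G32260), a subunit of the membrane part, had 0.28, 0.39 and -0.60 in WT and 0.33, -0.07 and -1.02 in eif3k. ATPC1, the gamma subunit, was at 0.78 to 1.09 in the same 5 samples and at -0.67 in WT replicate 3.

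**Figure D2:**
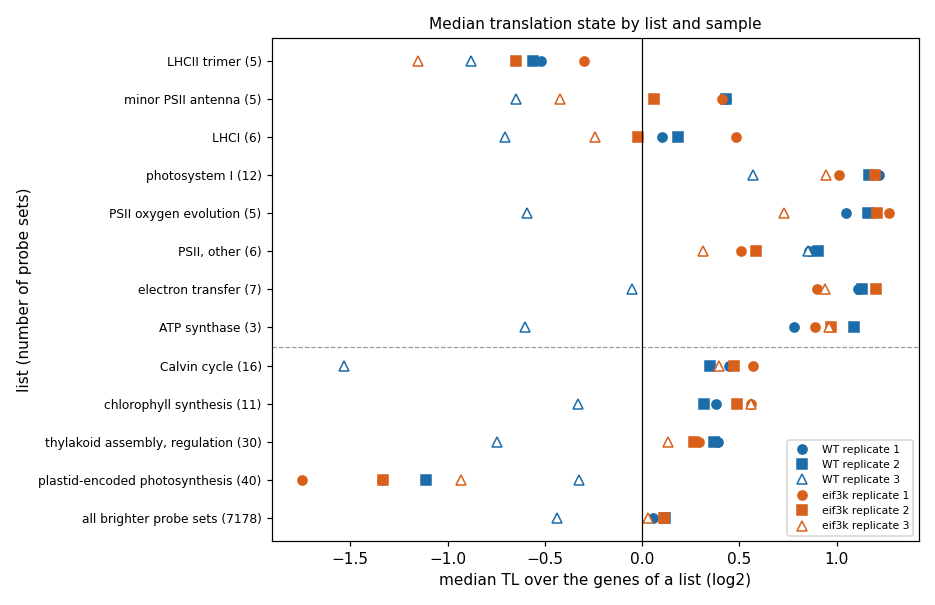
Median TL (log2, horizontal axis) per sample for the 8 functional groups of light-reaction genes above the dashed line and, below it, for other lists and for all probe sets with a mean log2 signal above 5. Colours and symbols are as in the plot of single genes, and numbers in parentheses are probe sets. The photosystem I group lies between 0.57 and 1.22 and the LHCII trimer group between -1.15 and -0.30.

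Lists of related genes were set beside the members. The 16 genes of the Calvin cycle had a median TL of 0.44, 0.35 and -1.54 in WT and 0.57, 0.47 and 0.40 in eif3k. For 11 genes of chlorophyll synthesis the medians were 0.38, 0.32 and -0.33 in WT and 0.56, 0.49 and 0.56 in eif3k. For 30 genes of thylakoid assembly, regulation and minor isoforms the values came to 0.39, 0.37 and -0.75 in WT and 0.29, 0.27 and 0.13 in eif3k. All of these medians lay below that of the members in the same sample. Called on the polysomal side were 0 Calvin cycle, 1 chlorophyll and 3 thylakoid genes in WT and 1, 1 and 3 in eif3k. Of all probe sets, 2.01% in WT and 2.18% in eif3k were called on that side. On the other side 2 thylakoid genes were called in each genotype and none of the other 2 lists. There the share of all probe sets was 2.82% in WT and 2.55% in eif3k.

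Within these lists the spread was as wide as among the members. CP12-2, a regulator of the Calvin cycle, had the highest mean TL of its list and ranged from 0.61 to 1.71, and RPE, ribulose-phosphate epimerase, had the lowest, with a median of -0.10 over the 6 samples and a value of -4.64 in WT replicate 3. In chlorophyll synthesis the highest was DVR, divinyl reductase, at 1.80 to 2.71, above every light-reaction gene in mean TL. The lowest mean was that of CAO, chlorophyllide a oxygenase, at -4.72 in WT replicate 3 and -0.70 to -0.21 in the other samples. Among thylakoid genes the highest was FD1, a minor leaf ferredoxin, at 1.30 to 1.89, and the lowest was TROL, which anchors FNR at the thylakoid, at -2.08 to -0.76. The regulators GLK1, GLK2 and HY5 were not called in either genotype. GLK2, a transcription factor of chloroplast development, lay at -1.19 to 0.18. HY5, a light-signalling factor, had a mean log2 signal of only 4.18.

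The plastid-encoded photosynthesis genes had the opposite sign of median TL. These genes encode parts of the same complexes and, with the ndh genes, of the plastid NDH complex. Of their 40 probe sets 29 had a mean log2 signal above 5. The 40 had a median TL of -1.34, -1.11 and -0.33 in WT and -1.75, -1.33 and -0.93 in eif3k. TL was below 0 in all samples for 19 of them and above 0 in all samples for none. The shares of all probe sets were 12.7% and 9.18%, and those of the brighter probe sets 25.5% and 19.3%. In WT 4 were called on the non-polysomal side and in eif3k 8 (2.82% and 2.55% of all probe sets), and none on the polysomal side. The lowest mean TL was that of psbA, the D1 protein, at -5.22 to -0.85. The study cautions that such arrays favour polyadenylated RNA, which in plastids is a step towards decay, so these values are given as signals only.

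WT replicate 3 differed from WT replicates 1 and 2 in most light-reaction genes and by unequal amounts. TL was lower than the mean of the other WT replicates for 42 of 49 members, by a median over all members of -0.72 (range -2.94 to 0.63), where the median over the brighter probe sets was -0.55. For 41 of the 42 the PL signal was lower, and for 41 PL moved more than NP. The median shift was -0.85 in PL and -0.18 in NP. The largest falls were those of FNR2 (-2.94), ATPD (-2.46) and LHCA6 (-2.11). Some small photosystem II proteins went the other way, such as PSBW from 0.47 and 0.07 to 0.90.

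**Figure D3:**
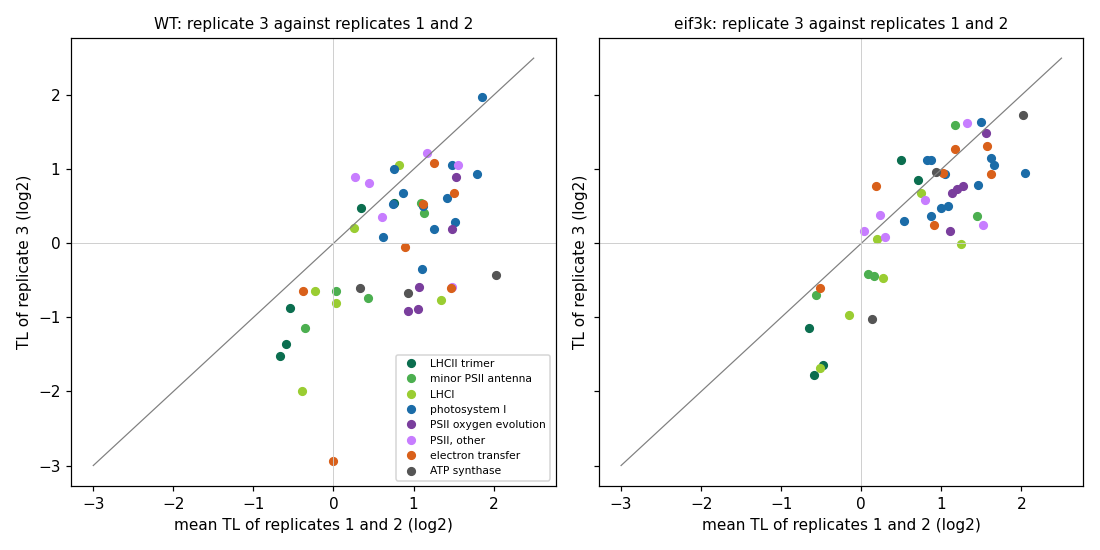
TL of replicate 3 (log2, vertical axis) against the mean TL of replicates 1 and 2 (horizontal axis) for the 49 genes, in WT (left) and eif3k (right), coloured by functional group. The line marks equal values, under which 42 genes lie in WT and 37 in eif3k.

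Between the other samples the order of genes was stable. Replicates 1 and 2 of WT differed in TL by under 0.3 for 43 of 49 members, with a largest difference of 0.77. As a description across the 49 genes, which are not independent replicates and share the same arrays within a sample, TL correlated at r between 0.80 and 0.96 among the 5 samples other than WT replicate 3 and at r between 0.48 and 0.61 between it and them. In eif3k replicate 3, 37 members were below the mean of eif3k replicates 1 and 2, by a median over all members of -0.46, while the brighter probe sets had a median of -0.11. The part of RNA quality or array batch in these differences was not tested.

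No light-reaction gene was called between genotypes in TL. The comparison asked whether the mutation in eIF3k shifts the ribosome loading of these mRNAs. Of 49 members 0 were called, the smallest adjusted p was 0.823 (limma), and 0 of all 22746 probe sets were called (0.0%). At an unadjusted p under 0.05 there was 1 member, PSBTN, where 2.69% of all probe sets passed. With dim probe sets left out there were 0 members, against 131 of the 7178 probe sets tested. Without WT replicate 3 there were 3 members, against 882 of 22746 probe sets. The median difference, eif3k minus WT, was 0.11, with 32 members above 0 and 17 below, and the brighter probe sets had a median of 0.19. Without WT replicate 3 the median was -0.14, with 10 members above 0 and 39 below (brighter probe sets -0.01). That setting kept eif3k replicate 3 as the only sample of the later array batch, so the difference mixed genotype with array batch. In that sample 37 of 49 members had a lower TL than the mean of the other eif3k replicates. The same imbalance holds for the genotype comparisons of level, PL and NP without WT replicate 3. With array batch 1 alone, which left out replicate 3 of each genotype, the median difference in TL was -0.005. The sign of the group's shift thus depended on which samples of replicate 3 were kept.

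**Figure D4:**
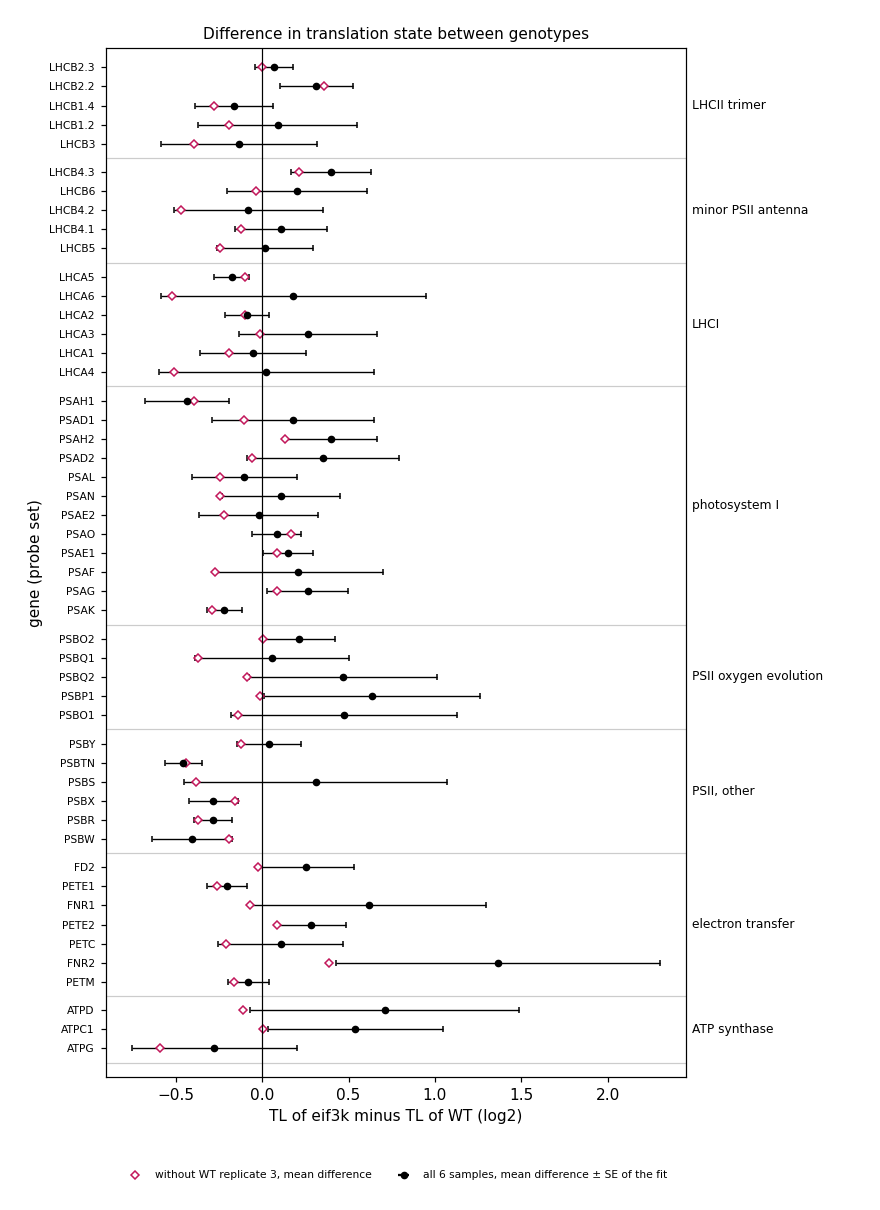
Difference in TL, eif3k minus WT (log2, horizontal axis), per gene. Black points with bars are the mean difference of all 6 samples ± SE of the fit, and open diamonds are the mean difference without WT replicate 3. FNR2 moves from 1.36 to 0.39 and PSBTN from -0.46 to -0.44 when that sample is left out.

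The smallest p among the members belonged to PSBTN (AT3G21055), a lumen protein of photosystem II, which had a TL of 1.11, 1.22 and 1.22 in WT and 0.65, 0.94 and 0.59 in eif3k. The groups did not overlap, and the difference was -0.46 ± 0.11 (SE, n = 3 and 3) with an adjusted p of 0.823 (limma, unadjusted p = 0.0101). PSBX (AT2G06520), a small membrane subunit, had 0.45, 0.43 and 0.81 in WT and 0.35, 0.11 and 0.38 in eif3k, a difference of -0.28 ± 0.14 (adjusted p = 0.823), and it too did not overlap. PSBTN and PSBX were the only 2 members whose groups did not overlap with eif3k lower, where 2.48% of all probe sets and 3.4% of the brighter ones did so. With eif3k higher there were 0 members, against 4.23% and 7.05%.

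PSBR (AT1G79040), another lumen-side protein, had a TL of 0.61, 0.59 and 0.35 in WT and 0.37, 0.23 and 0.09 in eif3k, a difference of -0.29 ± 0.11 (SE). The groups overlapped by 1 sample of each genotype. For PSAK, whose TL values are given above, the difference was -0.22 ± 0.10, and for LHCA5 it was -0.18 ± 0.10. With PSBTN and PSBX these were the 5 members with the smallest p, each with an adjusted p of 0.823 (limma), and all 5 were lower in eif3k. FNR2 had the largest difference in size, 1.36 ± 0.94 (adjusted p = 0.823), and 0.39 without WT replicate 3.

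In the NP fraction alone, PSBTN and PSBR had higher signals in eif3k than in WT, without passing the test. NP signal of PSBTN was 12.52, 12.49 and 12.75 in WT and 12.90, 12.81 and 13.03 in eif3k, with no overlap and a difference of 0.33 ± 0.10 (SE, limma adjusted p = 0.876). Its PL signal was 13.63, 13.71 and 13.97 in WT and 13.55, 13.75 and 13.62 in eif3k, which overlapped. NP signal of PSBR was 13.39, 13.42 and 13.23 in WT and 13.53, 13.60 and 13.85 in eif3k, also with no overlap (0.31 ± 0.11, adjusted p = 0.876). In NP 0 members were called (0.0% of all probe sets), and 6 had an unadjusted p under 0.05 (3.17% of all probe sets). These were PSBTN, PSBR, PSBX and PSAN, higher in eif3k, and PSBO2 and FD2, lower. With dim probe sets left out 0 members had such a p, against 347 of the 7178 probe sets tested. Without WT replicate 3 there were 2 members, against 761 of 22746 probe sets. Groups did not overlap for 6 members with eif3k higher (LHCB4.3, LHCA5, PSAN, PSBR, PSBTN and PETC, background 3.83% of all and 7.5% of the brighter probe sets) and for 2 with eif3k lower (PSBO2 and FD2, 2.47% and 3.94%).

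In the PL fraction 0 members were called between genotypes (0.0% of all probe sets, smallest limma adjusted p of a member 0.817). None had an unadjusted p under 0.05 (0 members, 1.92% of all probe sets). Without WT replicate 3 there were 3 such members, against 679 of 22746 probe sets. PL signals did not overlap for LHCB4.3, PSAG, PETC and PETE2 with eif3k higher (4 of 49, background 4.56% of all and 8.43% of the brighter probe sets) and for PSAH1 with eif3k lower (1.57% and 1.78%). PL signal of PSAH1 was 12.94, 12.95 and 13.19 in WT and 12.83, 12.87 and 12.47 in eif3k, a difference of -0.30 ± 0.14 (SE, limma adjusted p = 0.817).

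Signal levels of the light-reaction genes did not separate the genotypes by the test. Of 49 members 0 were called in level, against 0.0044% of all probe sets with eif3k higher and 0.0% with eif3k lower, and the smallest adjusted p was 0.818 (limma). At an unadjusted p under 0.05 there were 0 members, against 2.92% of all probe sets. Without WT replicate 3 there were 2 members, against 836 of 22746 probe sets. The median difference was 0.10, with 31 members above 0 and 18 below, and -0.06 without WT replicate 3, with 19 above and 30 below. In seedling tissue, fewer cells of a type and less RNA per cell cannot be told apart in such levels. Over the 4 samples of replicates 1 and 2, every member stayed within a range of 0.46 in level.

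The 3 members with the smallest p in level were PSAG, PSAN and PETC, each higher in eif3k. PSAG (AT1G55670), which helps to bind LHCI to photosystem I, had log2 PL signals of 13.68, 13.94 and 13.37 in WT and 13.98, 14.16 and 14.06 in eif3k, and its level differed by 0.27 ± 0.12 (SE, limma adjusted p = 0.818). PSAN (AT5G64040), a lumen subunit of photosystem I, had NP signals of 12.00, 11.86 and 12.10 in WT and 12.19, 12.19 and 12.20 in eif3k, with a difference in level of 0.26 ± 0.12. The NP signals of PSAN did not overlap. PETC had PL signals of 13.02, 12.93 and 12.06 in WT and 13.04, 13.20 and 13.23 in eif3k and NP signals of 12.05, 12.11 and 12.11 in WT and 12.14, 12.29 and 12.98 in eif3k. Its level differed by 0.43 ± 0.20 and its groups did not overlap in PL, NP or level. With eif3k higher, 3 members did not overlap in level (LHCB4.3, PSAN and PETC, background 5.14% of all and 9.46% of the brighter probe sets), and with eif3k lower there were 0 (2.41% and 1.77%).

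The levels of replicate 3 departed from the others in both genotypes, with different genes. In WT replicate 3, 41 of 49 members were below their own mean level over the 6 samples. The median level over the brighter probe sets was also lowest there, at 6.13 against 6.54 to 6.63 in the other samples. The low levels of that sample were thus not particular to the light-reaction genes. In eif3k replicate 3 the genes of the LHCII trimer were low in both fractions. LHCB2.3 had PL signals of 12.66, 12.73 and 12.18 in WT and 12.54, 12.57 and 10.32 in eif3k. In NP it had 11.92, 11.95 and 11.64 in WT and 11.70, 11.99 and 9.47 in eif3k. The last of these was far below every other sample, and its TL in that sample (0.85) was the highest of the 6, so both fractions were low by a similar amount.

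In all, 10 members had a level in eif3k replicate 3 that was more than 0.5 below the mean of the other 5 samples. They held all 5 probe sets of the LHCII trimer, with LHCB2.3 at -2.29, LHCB3 at -1.48, LHCB2.2 at -1.44, LHCB1.2 at -1.18 and LHCB1.4 at -0.71. LHCA4 was at -0.91, LHCA1 at -0.79, PSAD2 at -0.87 and PSAD1 at -0.81. PSAO was at -0.64. The minor antenna genes LHCB4.1, LHCB4.2, LHCB5 and LHCB6 differed from that mean by -0.26 to -0.07.

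A further 5 members were more than 0.5 above the mean of the other 5 samples in eif3k replicate 3. LHCB4.3 had PL signals of 6.70, 6.56 and 5.83 in WT and 6.89, 7.02 and 8.59 in eif3k, and a level in that sample that was 1.70 above the others. The groups of LHCB4.3 did not overlap, and the difference in level between genotypes was 0.94 ± 0.48 (SE, limma adjusted p = 0.818). FNR1 was at 1.04, ATPG at 0.65, PETC at 0.61 and FNR2 at 0.53. FNR2 was among them through the low level of WT replicate 3 (8.10), since its level was 10.01 in eif3k replicate 3 and 9.71 to 9.92 in the remaining 4 samples. These deviations describe 1 of 3 eif3k samples and not the genotype.

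**Figure D5:**
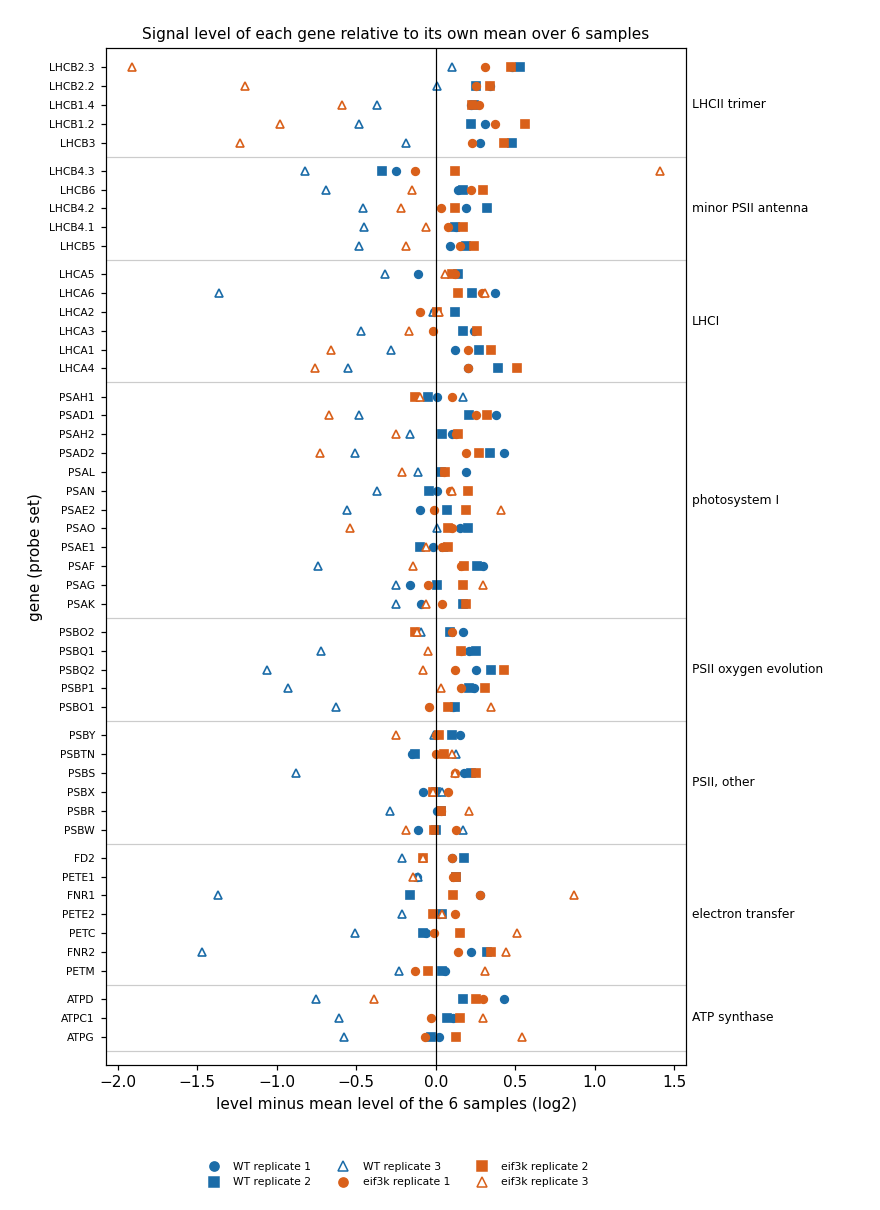
Signal level of each gene minus its own mean over the 6 samples (log2, horizontal axis), with genes, colours and symbols as in the plot of TL by gene. The open orange triangle of eif3k replicate 3 lies far to the left for the LHCII trimer genes, and the open blue triangle of WT replicate 3 lies left of 0 for 41 of 49 genes.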

How the data were processed

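RNA from the PL and NP pools was hybridized to 12 ATH1 arrays, 3 per group. Before deposition the authors corrected the log2 signals for background and normalized them between arrays, with GCRMA by the submitters' processing notes and RMA by the methods of the study. Versions were not given in the sources used here. Both deposited tables held identical signals, and 6 columns of the authors' ratios were not used. From 22810 probe sets, 64 controls were left out. Gene names came from the deposited loci, and all 49 measured member loci were found in the TAIR10.1 gene table. Arrays carry no read depth, and 3 replicates per group limit the precision.

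TL and level were tested by lmFit and eBayes of limma 3.58.1 under R 4.3.3, two-sided and with Benjamini-Hochberg adjustment. The prior degrees of freedom were low (TL 0.557, level 0.544, PL 0.441, NP 0.434). Both genotypes shared an estimate of the spread for each probe set, so the spread of the WT replicates also entered SE and p in eif3k. The methods call the WT samples biological replicates. For eif3k nothing says so, and p-values may measure partly technical spread. Replicate numbers come from the labels. Deviations of same-numbered samples from their group means correlated between genotypes at 0.134 to 0.232 in TL, 0.171 to 0.261 in level, 0.146 to 0.268 in PL and 0.161 to 0.237 in NP. All exceed 0.1, so same-numbered samples count as paired. The values given come from the fit without the replicate block, so SE and p of the genotype differences leave the pairing out. The fit with the block is an alternative, in which PSBTN had an adjusted p of 0.765 in TL (limma). A shared array batch would give the same correlations, and pairing and batch cannot be told apart.

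Values in every sample are given for the member with the highest and the lowest mean TL in each functional group, the 5 with the smallest p in TL and the 3 in level between genotypes, and paralog pairs. Members and lists were chosen with earlier results of these data known. Alternatives covered normalization, dim probe sets, moderation, shared probe sets, replicates left out, array batch and replicate block. Plots used matplotlib 3.10.9.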

Additional observations from a re-analysis of the deposited data

How the results depend on the processing

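No member was called between genotypes in TL, level, PL or NP under any alternative run. With the replicate block the count stayed at 0 in all 4 comparisons, so the block changed no call. The median differences were 0.11 in TL, 0.10 in level, 0.10 in PL and 0.02 in NP. The block could not change these medians, since each replicate number held a sample of each genotype. With replicates left out in turn, the median difference over members ran from -0.14 to 0.27 in TL, -0.06 to 0.19 in level, -0.13 to 0.32 in PL and -0.01 to 0.09 in NP. The number of members called against 0 ran from 0 to 15 in WT and from 0 to 13 in eif3k. For the settings with 0 members the share of all probe sets called was not counted. The median TL ran from 0.47 to 0.94 in WT and 0.76 to 0.91 in eif3k. Leaving out dim probe sets raised the count in eif3k from 8 to 15. With WT replicate 3 also left out, a choice made after seeing the data, 23 members were called in WT and 17 in eif3k. The share of all tested probe sets called in that setting was not counted, so these counts lack a background. No called gene changed sign under any alternative. Each of them had a TL above 0 in every sample, so leaving out replicates could not have changed the sign. For the genes called, 69 of 104 gene-by-alternative values kept the call in WT and 63 of 104 in eif3k, and most losses (31 of 35 and 37 of 41) came from leaving out a replicate. The 3 arrays per group and the weak moderation limit what could be called.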
